A study of Mus musculus with 3 samples.

Results

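The MHC class II presentation genes are 10 genes whose products build, load and regulate the molecules that show peptides to CD4 T cells. They were taken by symbol (H2-Aa, H2-Ab1, H2-Eb1, Cd74, H2-DMa, H2-DMb1, H2-DMb2, H2-Oa, H2-Ob and Ciita) and make up 10 of the 30905 genes in the deposited count matrices. All 10 were found, and the rule is a list of names that uses no measured value, although it was drawn up with earlier results of these data known.

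Class II molecules are pairs of an alpha and a beta chain that take up peptides in endosomes. H2-Aa and H2-Ab1 encode the chains of I-A, and H2-Eb1 encodes the beta chain of I-E, whose alpha chain C57BL/6 mice do not make. Cd74 encodes the invariant chain, which fills the groove until its fragment is exchanged for peptide with the help of the editor H2-DM, and H2-O binds H2-DM and restrains it. Ciita encodes the transactivator that is recruited to class II promoters by factors already bound there. B cells, dendritic cells and macrophages are the cells best known for this pathway, and plasma cells are known to switch Ciita off.

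The data are 3 single-cell libraries of CD45-positive leukocytes sorted from mouse colon, in which transcripts were counted at their 3′ ends with molecular identifiers (UMIs). Library C came from normal colon of healthy C57BL/6 mice, although its labels repeat the treatment text of the others. Libraries T1 and T3 came from C57BL/6 colon with low-grade and high-grade intraepithelial neoplasia, after 12 mg/kg of the carcinogen azoxymethane (AOM) and 3 cycles of 2.5% dextran sodium sulfate (DSS), which injures the gut lining, with DSS for 7 days and water for 14 days in each cycle. The labels give all mice as male and place model building at 6 to 8 weeks of age. Neoplasia and the AOM and DSS given before it cannot be told apart in comparisons with C. Each group is 1 library from an unstated number of mice, so no difference between libraries below has a replicate check, none was tested, and each interval is a 95% interval of counting error only.

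After filtering, C, T1 and T3 kept 5624, 5722 and 4333 barcodes, whose median depth was 4885.5, 5216.5 and 1713 UMIs. The label male goes against the 51332, 50449 and 23366 UMIs of Xist, a transcript of female cells, beside 1 UMI in each library over the Y-linked genes Ddx3y, Uty, Kdm5d and Eif2s3y. Each pair of libraries shared 15 to 20 kept barcode sequences. T3 stood apart by its haemoglobin transcripts, at 14578 CPM against 7.94 in C and 4.42 in T1, where CPM is the UMIs of a gene per 1000000 UMIs summed over the barcodes of a class. Cell classes were rebuilt from marker genes without the members and carry the ending "-like" to show this. The named classes hold no barcode with a UMI of Cd3d, Cd3e or Cd3g. Barcodes with such a UMI are called CD3-positive, and the summed transcripts of a short list of B-cell genes, among them Cd79a, Cd79b, Ms4a1 and Pax5, are called B transcripts.

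Of the members, 8 lie close together on mouse chromosome 17 of GRCm38, the build named in the submitters' processing notes. By the GENCODE M21 annotation these are H2-Oa (34092340 to 34095234, plus strand), H2-DMa (34119541 to 34139101, plus), H2-DMb2 (34143307 to 34151555, plus), H2-DMb1 (34153072 to 34160230, plus), H2-Ob (34238903 to 34254414, plus), H2-Ab1 (34257689 to 34269419, plus), H2-Aa (34282744 to 34287823, minus) and H2-Eb1 (34305867 to 34316674, plus). Ciita lies on chromosome 16 (10480059 to 10528418, plus) and Cd74 on chromosome 18. H2-Eb1, H2-DMa, H2-Oa and Ciita overlap an annotated gene on the other strand (Gm20513, Brd2 and others, BC051537 and Dexi), and H2-DMa and Cd74 overlap one on their own strand, so UMIs of these could be assigned in error. H2-DMb1 and H2-DMb2 are close copies. Their longest annotated coding transcripts were identical in 94.6% of aligned bases, and in 89.2% of aligned bases of the last 500, with 332 gap bases there. The counting could split reads of this pair, so the levels of each are uncertain.

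The promoters of these genes are known to share an X box, bound by the RFX complex, and a Y box, bound by NF-Y, to which Ciita is recruited. RefSeq promoter windows of GRCm38.p6, from 250 bases before to 50 after a start, were matched for 7 members, with 8 windows since H2-DMa has 2. The stretches of 5 members that hold both boxes at like spacing are shown. The H2-DMb1 stretch holds them too, but it is annotated as untranslated transcript sequence in GENCODE and is not shown. RefSeq starts and the GENCODE spans given above differ. The H2-DMb2 stretch lies inside the GENCODE span of its gene, which begins at 34143307. That of H2-Oa ends on the first base of its gene, 34092340. Each is written 5′ to 3′ on the gene's own strand, and capitals mark the core of an X box and the Y box GATTGG.

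H2-Aa (chr17:34287867-34287922, minus strand): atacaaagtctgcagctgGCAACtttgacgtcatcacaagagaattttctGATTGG
H2-Eb1 (chr17:34305757-34305812, plus strand): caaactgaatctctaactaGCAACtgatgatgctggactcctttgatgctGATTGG
H2-Oa (chr17:34092285-34092340, plus strand): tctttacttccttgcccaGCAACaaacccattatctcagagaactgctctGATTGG
H2-Ob (chr17:34238797-34238852, plus strand): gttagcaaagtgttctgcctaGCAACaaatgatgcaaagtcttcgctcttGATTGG
H2-DMb2 (chr17:34145108-34145163, plus strand): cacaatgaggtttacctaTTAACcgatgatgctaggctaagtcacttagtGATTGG

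GCAAC followed after 10 to 40 bases by GATTGG, searched on both strands, stood in 4 of the 8 windows (H2-Aa, H2-Eb1, H2-Oa and H2-Ob) and in 0.502% of all 32851 windows. In these genes 27, 26, 27 and 24 bases lay between the letters, and the Y box began 49, 60, 44 and 58 bases before the start. H2-DMb2 and H2-DMb1 had the Y box with TTAAC and with GTAAC in place of GCAAC, each 27 bases before it. A search that allows any of the 3 cores and 24 to 27 bases, a form chosen after these windows were seen, found 6 of 8 windows and 0.161% of all. GATTGG alone stood in 16.1% of all windows and GCAAC alone in 35.2%. These are matches of letters and not measured binding.

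In UMIs summed over a class, the members together were high in B-like and mononuclear-phagocyte-like barcodes and lower in germinal-centre-B-like ones. They were low in plasma-cell-like and ILC2-like barcodes and in CD3-positive barcodes without B transcripts. The class II sum, over the 10 members, was 27709 CPM in C, 27318 in T1 and 24425 in T3 over the B-like class, which had 2207, 2545 and 754 barcodes. It was 15211 in C and 17113 in T1 in germinal-centre-B-like barcodes (153 and 91). In the mononuclear-phagocyte-like class, which joins macrophages, monocytes and dendritic cells, it was 44160, 28351 and 19725 in C, T1 and T3 (35, 32 and 14 barcodes). Plasma-cell-like barcodes had 2668 and 2804 in C and T1 (59 and 67 barcodes), and ILC2-like barcodes, a kind of innate lymphocyte, 383 and 518 (100 and 52). B-like and germinal-centre-B-like barcodes together held 78.0%, 85.2% and 71.7% of the class II UMIs of C, T1 and T3.

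**Figure D1:**
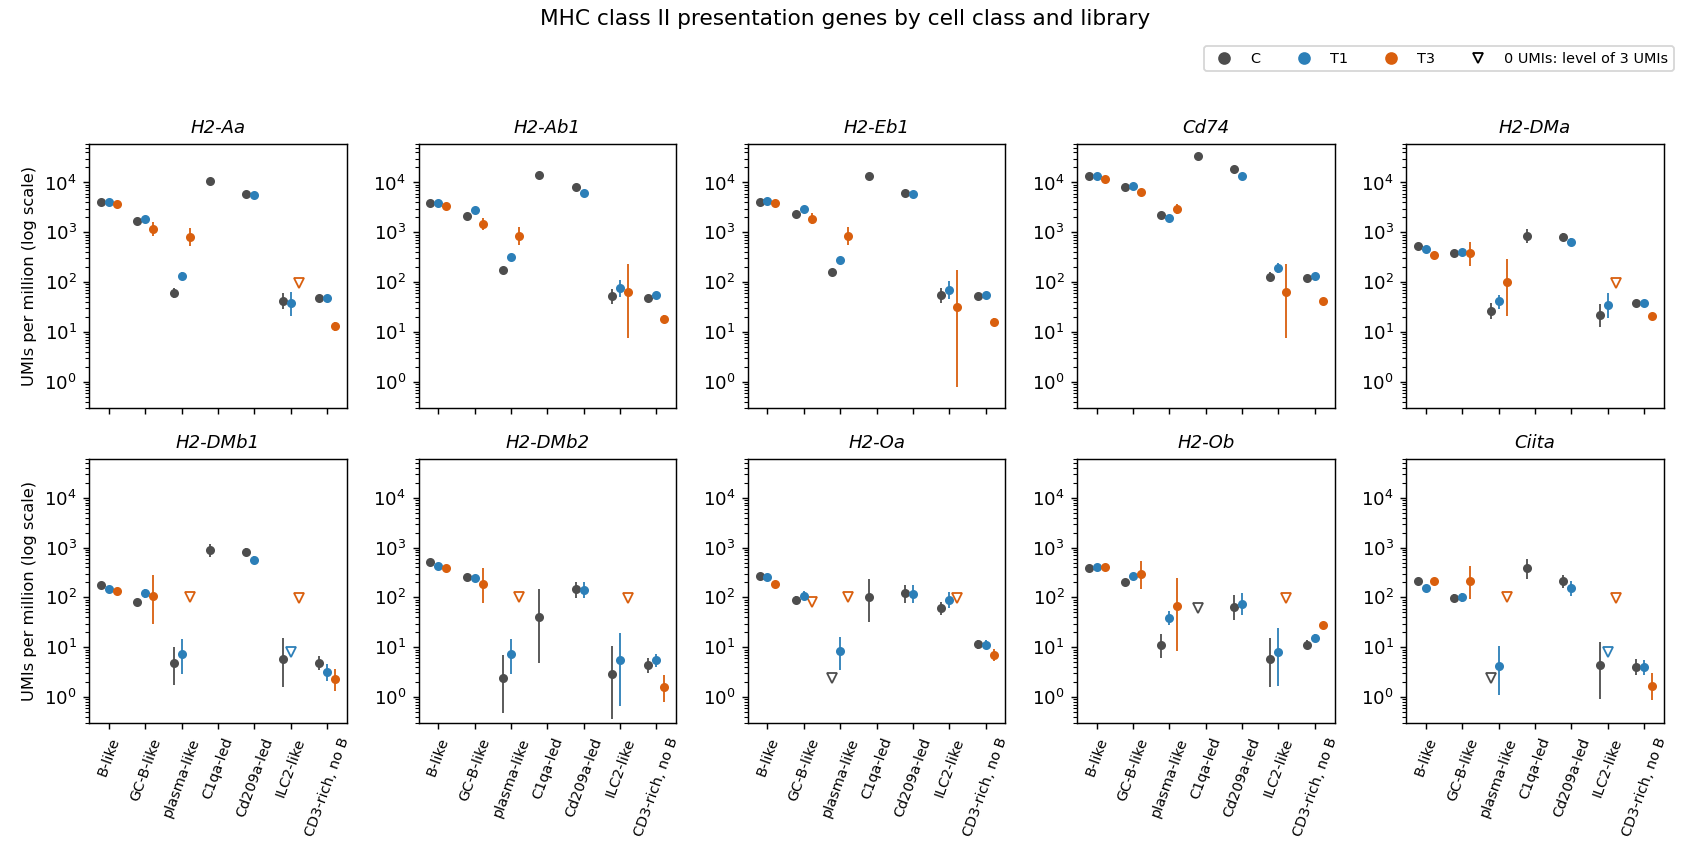
Level of each member in CPM (log scale) by cell class and library, with 95% counting intervals. Open triangles stand for 0 UMIs, drawn at the level of 3 UMIs, and a class with fewer than 6 barcodes in a library is not drawn. H2-Aa lies at 3717 to 4117 in B-like barcodes and at 13.2 to 49.1 in CD3-rich ones, and H2-Oa of ILC2-like barcodes, at 60.6 in C and 90.0 in T1, lies above that of CD3-rich ones.

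The classical chain genes had like levels in B-like barcodes. H2-Aa was 4117, 4041 and 3717 CPM in C, T1 and T3. H2-Ab1 was 3849, 3891 and 3448. H2-Eb1, whose product has no partner chain in this strain, was as high, with 4034, 4289 and 3827. H2-Ab1 exceeded H2-Aa in germinal-centre-B-like and phagocyte-like barcodes. There were 0.935 H2-Ab1 UMIs per H2-Aa UMI in B-like barcodes of C (0.922 to 0.948), 1.31 in germinal-centre-B-like ones (1.24 to 1.37) and 1.40 in the phagocyte-like class (1.32 to 1.49).

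Cd74, the invariant chain gene, was the most abundant member in each of these classes. It was 13641, 13225 and 11764 CPM in B-like barcodes of C, T1 and T3. In C the UMIs of Cd74 per UMI of H2-Aa were 3.31 in B-like (3.28 to 3.35), 3.15 in phagocyte-like (2.99 to 3.32) and 4.80 in germinal-centre-B-like barcodes (4.61 to 4.99). Plasma-cell-like barcodes stood far above these, at 36.9 in C (29.4 to 47.0) and 14.8 in T1 (12.4 to 17.8), while the 9 of T3 had 3.63 (2.28 to 5.96).

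The 2 genes of the H2-DM beta chain changed places between B-like and phagocyte-like barcodes. In B-like barcodes H2-DMb2 was the higher, with 507, 423 and 381 CPM in C, T1 and T3 against 176, 151 and 137 of H2-DMb1. In the phagocyte-like class H2-DMb1 was the higher, with 737, 489.5 and 257 against 145, 116 and 69.0 of H2-DMb2. UMIs of H2-DMb1 per UMI of H2-DMb2 were 0.347, 0.356 and 0.360 in B-like barcodes. They were 5.09 (3.66 to 7.24), 4.21 (2.86 to 6.36) and 3.73 (1.88 to 8.04) in the phagocyte-like class, so the counting intervals of these classes did not overlap in any library. Germinal-centre-B-like barcodes were on the B side, with 0.317 in C and 0.498 in T1. H2-DMa, which encodes the alpha chain that both beta chains pair with, was 528, 471 and 354 CPM in B-like barcodes and 768, 595 and 552 in the phagocyte-like class.

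Among these classes the H2-O genes were highest in B-like barcodes. H2-Ob was 383, 414 and 405 CPM there in C, T1 and T3, 199.8 and 275 in germinal-centre-B-like barcodes of C and T1, and 53.9 and 70.4 in the phagocyte-like class of C and T1. H2-Oa was 266, 262 and 184 in B-like barcodes, 89.3 and 109 in germinal-centre-B-like ones, and 108 and 102 in the phagocyte-like class. The 2 genes together gave 53.5, 64.8 and 67.5 UMIs per 100 UMIs of the 3 H2-DM genes in B-like barcodes. The phagocyte-like class had 9.80 (7.13 to 13.2), 14.4 (10.4 to 19.4) and 7.86 (3.83 to 14.5), below the B-like values in each library.

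**Figure D2:**
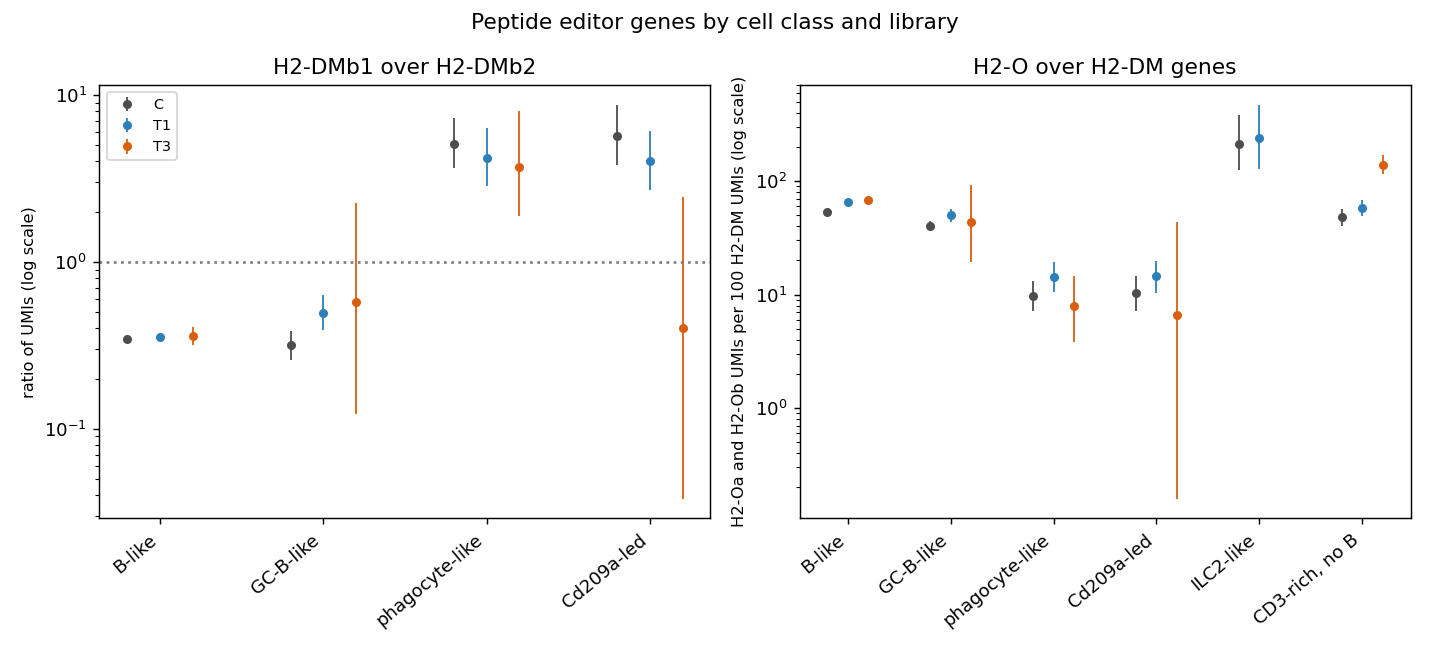
Left, UMIs of H2-DMb1 per UMI of H2-DMb2 by class and library (log scale, dotted line at 1). Right, UMIs of H2-Oa and H2-Ob per 100 UMIs of H2-DMa, H2-DMb1 and H2-DMb2 (log scale). Bars are 95% counting intervals, and T3 points of germinal-centre-B-like and Cd209a-led barcodes rest on 6 and 2 barcodes. On the left B-like barcodes lie at 0.347 to 0.360 and the phagocyte-like class at 3.73 to 5.09, and on the right they lie at 53.5 to 67.5 and 7.86 to 14.4.

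Ciita was 209.7, 152 and 209.6 CPM in B-like barcodes of C, T1 and T3. It was 99.04 and 100.3 in germinal-centre-B-like barcodes of C and T1, and 226, 123 and 94.1 in the phagocyte-like class. Plasma-cell-like barcodes had 0 UMIs of it in C, where 3 UMIs would be 2.38 CPM, and 4.14 CPM in T1.

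Some genes outside the list followed these levels closely over the 20 groups of a class in a library with at least 20 barcodes. By Pearson's r of log2(CPM + 10), among 7820 genes with at least 500 UMIs, those most like the class II sum were BC028528, Ctsh, Ly86, Mef2c and Bcl11a (0.93 to 0.94). Ctsh encodes a cathepsin of endosomes and lysosomes. The genes most like H2-Ob were Ebf1, Cd22 and Pax5 (0.97 to 0.98), all B-cell genes, and those most like Ciita were Ly86, Cd83 and Bcl11a (0.96). Ebf1, Cd22 and Pax5 were also markers used to name the B-like class. Pax5 has no UMI by definition in CD3-positive barcodes without B transcripts. The rank of these genes thus rests in part on how the groups were made. H2-DMb2 followed H2-Ob more closely (0.96) than H2-DMb1 did (0.71). The groups share libraries and cell lineages, and these values are a description.

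The B-like class held different clusters in different shares in each library. Cluster 0, led by Fcer2a and Iglc3, had most B-like barcodes of C (1219 of 2207), with 680 in T1 and 223 in T3. Cluster 1, led by Plaur and Rasgef1b, had 706, 946 and 425. Cluster 3, led by Apoe and Plac8, had 185, 896 and 95, and since none of its 10 leading genes was a B marker and 1 was a marker of another class, clusters are compared by number and the whole class is given beside them. H2-Aa and H2-Eb1 were themselves among those 10 genes, although no member was used in clustering. The small cluster 17, led by Ifit3 and Ifit1, had 97, 23 and 11 barcodes.

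In clusters 0 and 1 the class II sum was highest in C and lowest in T3. It was 27654, 26175 and 21283 CPM in cluster 0 and 29532, 28772 and 26219 in cluster 1. In cluster 3 it was highest in T1, with 23120, 26779 and 23511. No member of 10 passed a size rule in clusters 0, 1 or 3 in any pair of libraries. The rule asks for a 2-fold difference of CPM, at least 100 UMIs over both libraries (such genes are called tested) and a counting interval of the ratio that leaves out 1.

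By the same rule the share of all tested genes that were higher and lower in T1 than in C was 0.0826% and 0.248% in cluster 0, 0.18% and 0.252% in cluster 1, and 1.03% and 2.73% in cluster 3. For T3 against C these shares were 4.02% and 1.31%, 2.84% and 1.49%, and 2.69% and 3.08%. For T3 against T1 they were 4.59% and 0.793%, 1.35% and 0.524%, and 4.96% and 1.86%.

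Below 2-fold, the members' median log2 ratio of T3 over C was −0.38 in cluster 0 and −0.21 in cluster 1. Over all tested genes it was 0.11 and 0.05. In cluster 3 the members' median was 0.09, against −0.07 over all tested genes. Among the members, H2-DMa and H2-Oa were lower in T3 in clusters 0 and 1 while H2-Ob was level. H2-DMa was 542, 504 and 371 CPM in C, T1 and T3 in cluster 0 and 553, 469.6 and 341 in cluster 1, with T3 over C log2 ratios of −0.55 (−0.74 to −0.36) and −0.70 (−0.84 to −0.56). H2-Oa was 282, 293 and 173 in cluster 0 and 267, 256 and 185 in cluster 1, with ratios of −0.70 (−0.99 to −0.43) and −0.53 (−0.73 to −0.33). H2-Ob was 405, 425 and 393 in cluster 0 and 397, 431 and 424 in cluster 1, and both T3 over C intervals included 0. Cluster 3 did not share this. There H2-DMa was 394, 451 and 374, H2-Oa 166, 247 and 197 and H2-Ob 237, 391 and 349, with T1 over C ratios of 0.20, 0.58 (0.34 to 0.82) and 0.72 (0.53 to 0.92).

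**Figure D3:**
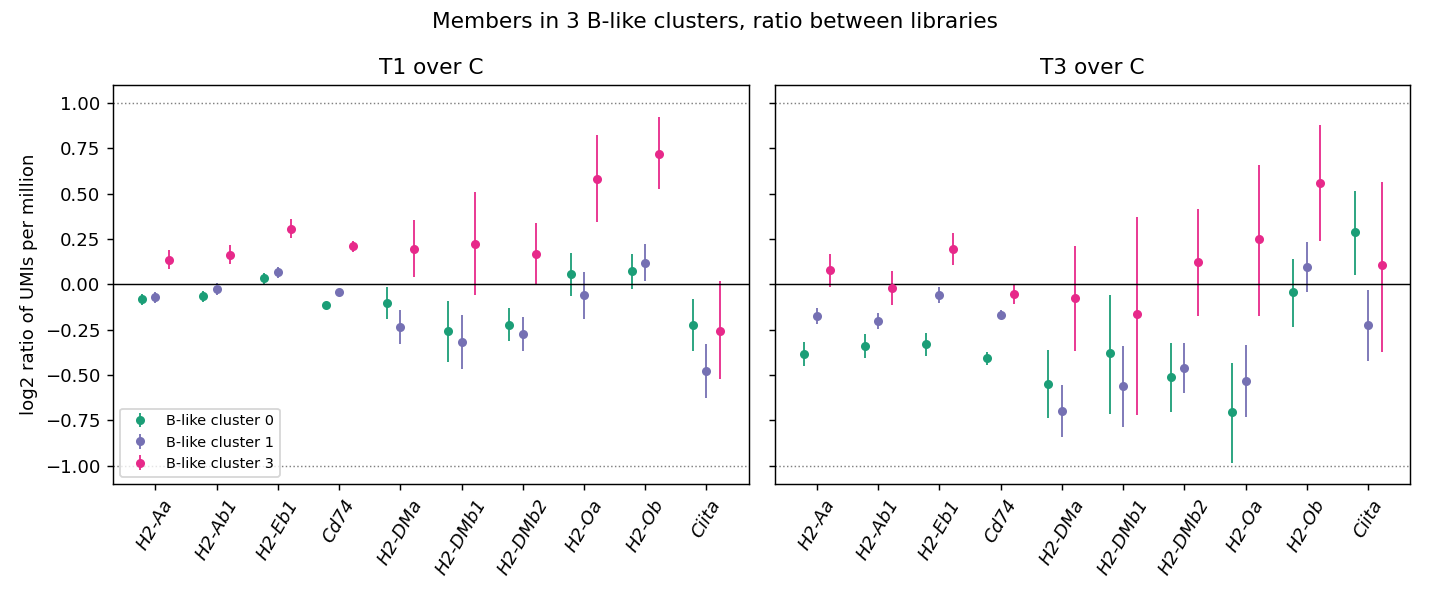
Log2 ratio of CPM of each member in 3 B-like clusters, T1 over C on the left and T3 over C on the right, with 95% counting intervals and dotted lines at a 2-fold difference. All points lie between the dotted lines. In T3 over C, H2-DMa and H2-Oa of clusters 0 and 1 lie between −0.53 and −0.70 and H2-Ob of these clusters lies near 0.

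Over the whole B-like class 0 of 10 members passed the rule as well. Here 0.281% of tested genes were higher and 0.733% lower in T1 than in C, 2.81% and 1.33% in T3 than in C, and 2.8% and 0.598% for T3 against T1. The class II sum had log2 ratios of −0.02 (−0.03 to −0.01) in T1 over C, which turned to 0.043 when mitochondrial, ribosomal protein, immunoglobulin and haemoglobin counts were left out of the total, and −0.18 (−0.19 to −0.17) in T3 over C. The members' median was −0.04 and −0.19, against −0.07 and 0.08 over all tested genes. Ciita had −0.47 (−0.55 to −0.38) in T1 over C and 0.00 in T3 over C. With barcodes drawn down to 1000 UMIs, which left out 45, 78 and 106 shallower ones, 40.9%, 36.2% and 27.01% of the other B-like barcodes had a UMI of H2-DMa in C, T1 and T3 (84.6%, 82.0% and 59.95% of all at full depth), and 33.6%, 34.9% and 33.2% had one of H2-Ob (76.7%, 79.5% and 68.3%).

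Of the other pathway genes in the whole B-like class none passed the rule. The counts were 0 of 15 tested genes of class II transcription, such as Rfx5, which encodes an RFX subunit, 0 of 11 class I presentation genes, and 0 of 10 and 0 of 9 antigen processing genes and 0 of 7 and 0 of 6 genes of class II traffic and costimulation in T1 and T3 over C. By cluster 3 genes passed. Spi1, which encodes the factor PU.1, was 84.9 CPM in C and 39.1 in T3 in cluster 1. Cd86, a costimulator, was 106 in C and 213 in T3 in cluster 3. Irf4 was 69.8 in T1 and 147 in T3 in cluster 0, and 91.6 and 274 in cluster 3.

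Germinal-centre-B-like barcodes, led by Pclaf, Rgs13 and Mef2b, were lower than B-like ones in every member in C and T1, least in H2-DMa. H2-Aa was 1661 CPM in C and 1860 in T1 against 4117 and 4041 in B-like barcodes, and H2-Oa 89.3 and 109 against 266 and 262. H2-DMa was 388 and 405 against 528 and 471. No member of 10 passed the rule in T1 over C, beside 0.493% of genes higher and 0.986% lower. The class II sum had a ratio of 0.17 (0.14 to 0.20) and H2-Ab1, 2170 in C and 2799 in T1, of 0.37 (0.29 to 0.44). T3 held 6 such barcodes, with a class II sum of 12152 CPM.

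Plasma-cell-like barcodes, led by Igha and Jchain, held Cd74 with little of the other members. In C they had 2225 CPM of Cd74, 60.2 of H2-Aa, 176 of H2-Ab1, 162 of H2-Eb1, 26.9 of H2-DMa and 11.1 of H2-Ob. In T1 they had 1970, 133, 313, 280.2, 41.4 and 39.3. H2-Aa was the 1 of 4 tested members that passed the rule, as higher in T1 (1.15, 0.73 to 1.58), beside 1.45% of genes higher and 1.85% lower. B transcripts in these barcodes were 672 CPM in C and 1068 in T1, and their part in the result was not tested. T3 held 9 such barcodes with a median of 665 UMIs, against 20061 and 13125 in C and T1.

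Barcodes of the phagocyte-like class varied widely. The quartiles of the class II level per barcode were 10893, 26782 and 56445 CPM in C, 11555, 20386 and 42610 in T1, and 1045, 8067 and 29075 in T3. In B-like barcodes of C they were 23808, 28139 and 32727. Against C, Cd74 was 19860 CPM in C and 11960 in T1 (−0.73, −0.79 to −0.67) and H2-Ab1 8834 and 5258 (−0.75, −0.84 to −0.66). None of 7 tested members passed the rule, beside 3.32% of genes higher and 5.32% lower, and their median was −0.59 against 0.03 over all tested genes. Cd9, which encodes a tetraspanin, was the 1 of 3 tested genes of traffic and costimulation that passed, as lower in T1 (263 in C and 130.3 in T1).

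The make-up of this class moved with its class II level. The group called Cd209a-led, after a lectin of dendritic cells, had 18, 24 and 2 barcodes in C, T1 and T3. Ifitm3 and Ifitm1 ranked above Cd209a among its 10 leading genes, of which 1 was a dendritic marker. The group led by the complement genes C1qa, C1qb and C1qc, known from macrophages, had 10, 1 and 4. The group led by Lyz2 and Chil3 had 7, 5 and 4. The group led by Siglech, known from plasmacytoid dendritic cells, had 0, 2 and 4. Within the Cd209a-led group the class II sum was 41091 CPM in C and 32909 in T1 (−0.32, −0.37 to −0.27), against −0.64 for the whole class, while H2-Aa was 5774 and 5548. The C1qa-led barcodes of C summed to 74780 CPM, while their median barcode had 20591, at a median depth of 2929.5 UMIs, and the 4 of T3 summed to 44267 with a median barcode of 43093. The Chil3-led group had 25425, 9591 and 608, beside 0, 0 and 3170 CPM of the neutrophil genes S100a8 and S100a9, which were 0, 0 and 960.2 in the whole class. B transcripts in the whole class were 215, 542 and 56.5 CPM. The part of these differences in the ratio of the whole class was not tested.

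Neutrophil-like barcodes, of which T3 had 47, were low in class II. Their sum was 156 CPM, with Cd74 at 58.4 and H2-Ob at 19.5. Ciita, H2-DMb1, H2-DMb2 and H2-Oa had 0 UMIs, which allows a level of up to 19.5 CPM for each at 3 UMIs.

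ILC2-like barcodes, led by Csf2, Ccl1 and Arg1 with the ILC2 genes Gata3 and Il1rl1, had more H2-Oa per UMI of Cd74 than B-like barcodes. The class II sum was 383 CPM in C and 518 in T1, of which Cd74 made 130.1 and 194. H2-Oa was 60.6 (43.5 to 82.2) and 90.0 (61.9 to 126), while its partner H2-Ob was 5.91 and 8.18. UMIs of H2-Oa per 100 UMIs of Cd74 were 46.6 (31.3 to 68.2) and 46.5 (29.8 to 71.2), against 1.95 and 1.98 in B-like barcodes of the same libraries. With barcodes drawn down to 1000 UMIs, 9.18% (4.29 to 16.7) of 98 and 7.84% (2.18 to 18.9) of 51 ILC2-like barcodes deep enough for this had a UMI of H2-Oa, against 1.31% and 0.961% of CD3-positive barcodes of the CD3-rich clusters described below. Over all barcodes at full depth it was 29.0% and 40.4%, against 5.83% and 5.78%. CD3-positive barcodes without B transcripts of those clusters had 11.5 and 11.3 CPM of H2-Oa beside 123 and 134 of Cd74 in C and T1. In their cluster 7 of C it was 32.5 beside 105.5. A higher proportion of H2-Oa to Cd74 than in B-like barcodes was thus not particular to ILC2-like ones. B transcripts were 48.8 and 70.9 CPM in ILC2-like barcodes, and the part of free RNA in these values was not tested. Cd74 was the only member tested in T1 over C and did not pass (0.57, 0.10 to 1.04), beside 0.885% of genes higher and 1.33% lower. T3 held 6 such barcodes. Barcodes named by NK and ILC1 markers, also innate lymphocytes, numbered 51 in C and 23 in T1, with class II sums of 609 and 751 CPM. Their H2-Oa level is not compared here, so H2-Oa cannot be called particular to ILC2-like barcodes.

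CD3-positive barcodes carried class II mainly where they carried B transcripts. Those with no B transcript had a class II sum of 687, 428 and 393 CPM in C, T1 and T3 (1474, 1425 and 1836 barcodes). Those with 10 or more UMIs of B transcripts had 20187, 19145 and 23270 (381, 250 and 74 barcodes), and 327, 214 and 72 of these sat in B-like clusters. CD3-positive barcodes of B-like clusters with B transcripts had 26758, 27068 and 25449 CPM of class II and 6.09, 6.72 and 6.72 class II UMIs per UMI of B transcripts, beside 6.04, 6.79 and 6.38 in the B-like class. Their CD3 level was 310.1, 221 and 296 CPM. Whether these hold RNA of a B and a T cell in 1 droplet was not tested.

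Clusters in which over 50% of barcodes had a CD3 UMI, and which also reached a limit on their T marker score with T or NK and ILC1 markers highest, are called CD3-rich here. Unnamed cluster 5, with a CD3 UMI in 66.1% of its barcodes, met the first condition only and is not among them. One of them, cluster 4, had 2 markers of NK and ILC1 cells and no T marker among its 10 leading genes, so they get no cell type name as a class. CD3-positive barcodes of these clusters had CD3 levels of 2909, 2320 and 1629 CPM where they had no B transcripts. Their class II sum changed little with up to 3 UMIs of B transcripts. At 0, 1 and 2 to 3 UMIs it was 345, 390 and 381 CPM in C, 369, 381 and 384 in T1, and 152, 162 and 158 in T3. At 4 to 9 UMIs it was 1199, 1680 and 1186 in C, T1 and T3, from 8, 6 and 1 barcodes. Over all clusters the sum at 2 to 3 UMIs was 1307, 1244 and 4581. Of those 181, 176 and 213 barcodes, 121, 146 and 14 lay in CD3-rich clusters. B-cell genes were not left out of the clustering, so the course within CD3-rich clusters depends on how barcodes were sorted into them.

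**Figure D4:**
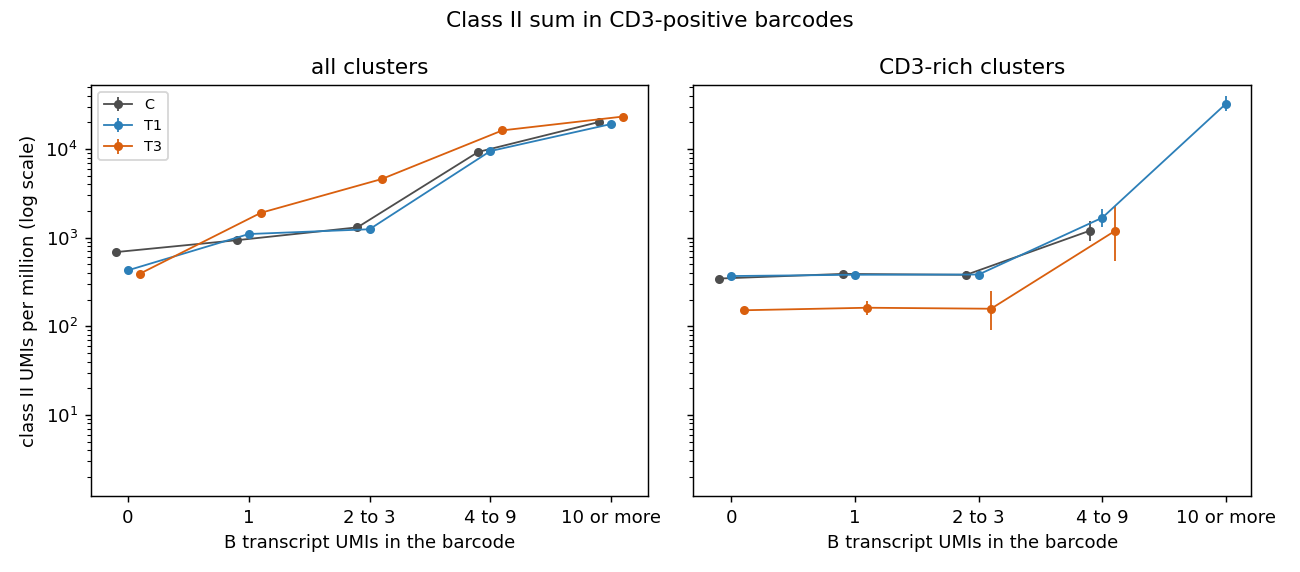
Class II sum in CPM (log scale) of CD3-positive barcodes by their UMIs of B transcripts, in all clusters (left) and in CD3-rich clusters (right), with 95% counting intervals. Over all clusters the level reaches 19145 to 23270 at 10 or more UMIs. In CD3-rich clusters it stays at 345 to 390 in C, 369 to 384 in T1 and 152 to 162 in T3 up to 3 UMIs, and the point at 10 or more is 1 barcode of T1.

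Whether CD3-positive barcodes without B transcripts had less class II in T1 than in C depended on the clusters taken. Over all clusters the ratio of the sum was −0.68 (−0.74 to −0.62), and over CD3-rich clusters, with 345 and 369 CPM, it was 0.09 (0.02 to 0.17). In C 55 such barcodes lay in clusters of other named classes and had 7809 CPM, and in T1 28 had 2080. Over all clusters H2-DMb1, at 11.9 CPM in C and 5.15 in T1, was the 1 of 10 tested members past the rule, beside 1.56% of genes higher and 1.9% lower. Over CD3-rich clusters none of 7 tested members passed, beside 1.71% and 1.89%.

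In T3, CD3-positive barcodes without B transcripts in CD3-rich clusters had less of the classical chain genes and of Cd74 than in C and T1. H2-Aa was 49.1, 47.4 and 13.2 CPM in C, T1 and T3. H2-Ab1 was 47.7, 54.3 and 18.5, and H2-Eb1 51.9, 56.0 and 15.95. Cd74 was 123, 134 and 42.7. These were the 4 of 7 tested members that passed the rule as lower in T3 than in C, with ratios from −1.89 to −1.37, and H2-Ob passed as higher, beside 3.02% of genes higher and 6.68% lower. The same 4 members were lower in T3 than in T1, and none higher, beside 2.07% and 4.36%. Without cluster 4 the same 5 members passed in T3 over C, beside 2.42% and 3.32%. The lower levels of the summed CD3-rich clusters rest on leaving out cluster 5. Levels within single clusters, given below, do not depend on cluster 5. With its 295 barcodes, all of T3, the class II sum of T3 was 377 CPM, with ratios of 0.13 (0.05 to 0.20) over C and 0.03 (−0.04 to 0.11) over T1. H2-Ob was then the only 1 of 7 tested members past the rule in T3 over C, as higher, beside 3.03% and 6.52%, and none of 7 passed in T3 over T1, beside 2.01% and 4.28%.

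Values of the whole libraries moved with this. Haemoglobin in these barcodes was 0.493, 0.354 and 449.8 CPM. The class II level over all kept barcodes was 13104, 13536 and 6702 CPM in C, T1 and T3, that of B transcripts 2206, 2050 and 1025, and neutrophil-like barcodes of T3 had 156 CPM of class II beside 152 in these CD3-positive barcodes. The part of free RNA was not tested. Over all clusters 2 of 8 tested members, H2-Ab1 and H2-DMb1, were lower in T3 than in C and H2-Ob was higher (2.9% of genes higher and 6.87% lower), and none of 7 passed in T3 over T1 (2.05% and 4.41%).

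By cluster number, Cd74 passed the rule as lower in T3 than in C in clusters 2, 7, 8 and 9, and in cluster 10 it had too few UMIs to be tested. In T3 over C 0.863%, 1.02%, 3.25% and 2.65% of tested genes were lower in these 4 clusters, and 4.07%, 4.02%, 6.12% and 2.6% higher. H2-Aa and H2-Eb1 were also lower in cluster 2, of 4 members tested there, and Cd74 was the only member tested in the other 3. It was 108, 144 and 46.2 CPM in C, T1 and T3 in cluster 2, led by Igfbp4 and Lef1, and 105.5, 104.5 and 23.9 in cluster 7, led by Cd8b1. It was 119, 114 and 34.7 in cluster 8, led by Il17a, and 126, 124 and 46.2 in cluster 9, led by Tbc1d4. In these 4 clusters the log2 ratio of T3 over C lay between −2.14 and −1.23. In cluster 10, led by Il10 and the regulatory T cell gene Foxp3, Cd74 was 127, 191 and 179 (T3 over C 0.50, −0.12 to 1.14), while H2-Aa was 59.9, 54.3 and 9.27. Clusters 4, 11 and 13 had fewer than 20 barcodes in C or T3.

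H2-Ob went the other way from Cd74 in these barcodes. Over the CD3-rich clusters it was 11.2 CPM in C (9.04 to 13.8), 15.7 in T1 (13.1 to 18.6) and 27.5 in T3 (23.7 to 31.7), with a T3 over C ratio of 1.29 (0.93 to 1.67), or 1.18 (0.75 to 1.63) without cluster 4. With 1000 UMIs a barcode, which left out 31, 30 and 140 shallower ones, 1.02%, 1.40% and 3.06% of barcodes had a UMI of it (6.05%, 8.39% and 10.98% of all at full depth). UMIs of H2-Ob per 100 UMIs of Cd74 were 9.15, 11.7 and 64.3, beside 2.80, 3.13 and 3.44 in the B-like class. H2-DMa also stood above the B-like proportion, with 31.0, 28.2 and 49.0 per 100 against 3.87, 3.56 and 3.01.

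The H2-Ob level differed between clusters of 1 library. In T3 it was 30.2 CPM in cluster 2 (23.6 to 38.2), 29.5 in cluster 7, 33.1 in cluster 11 and 4.34 in cluster 8 (0.53 to 15.7). In T1 it was 23.8, 27.8, 25.6 and 4.93. Lef1, a factor known from naive T cells, is among the 10 leading genes of clusters 2, 7 and 11. Cluster 11, however, is led by Dusp10, Myb and Itm2a, and these clusters get no common cell type name. Clusters 2, 7 and 11 held 40.6%, 19.7% and 20.6% of the CD3-positive barcodes without B transcripts of the CD3-rich clusters in T3, against 18.99%, 6.54% and 0.711% in C. Within clusters 2 and 7 H2-Ob was 17.6 and 11.4 in C, with T3 over C ratios of 0.78 (0.12 to 1.48) and 1.38 (0.24 to 2.75), neither with 100 UMIs over both libraries. In cluster 9 it was 15.8, 13.8 and 17.3 in C, T1 and T3, a ratio whose interval included 0.

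Among CD3-rich clusters with at least 20 barcodes, H2-Oa was highest in cluster 7, led by Cd8b1 and Cd8a. It was 32.5, 21.3 and 16.3 CPM there in C, T1 and T3, while the median over these clusters was 11.6, 13.7 and 4.08. In cluster 11 of T3 H2-Oa was 0.77 beside 33.1 of H2-Ob.

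**Figure D5:**
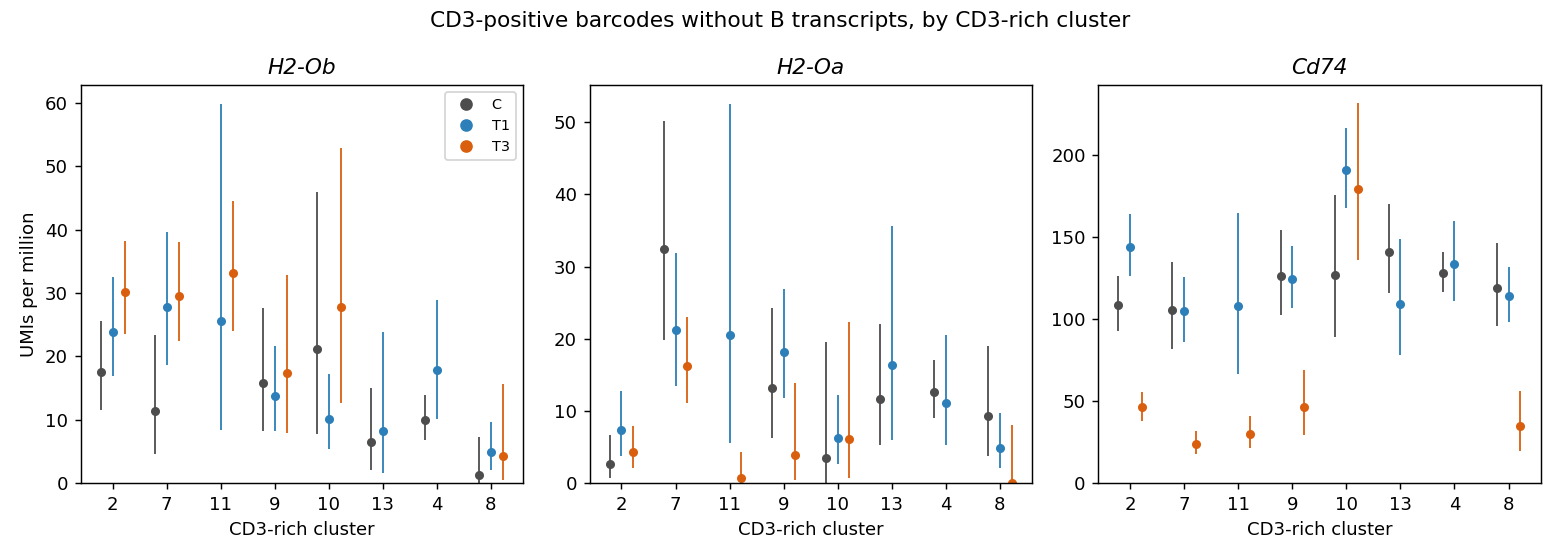
Levels of H2-Ob, H2-Oa and Cd74 in CPM in CD3-positive barcodes without B transcripts, by CD3-rich cluster and library, with 95% counting intervals. Clusters with fewer than 20 barcodes in a library are not drawn for it. H2-Ob of T3 lies at 29.5 to 33.1 in clusters 2, 7 and 11 and at 4.34 in cluster 8, and Cd74 of T3 lies below C in clusters 2, 7, 8 and 9 and above C in cluster 10.

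Other pathway genes were compared in CD3-positive barcodes without B transcripts of the CD3-rich clusters. Of these genes 4 passed the rule in T1 over C, where 1.71% of all tested genes were higher and 1.89% lower. The levels pool clusters whose shares differed between C and T1. Cluster 4 held 41.7% of these barcodes in C and 10.8% in T1, and cluster 10 held 3.77% and 17.7%. The part of these shares in the calls was not tested. Of 14 tested genes of class II transcription, Irf4 (13.7 CPM in C and 31.9 in T1) and Prdm1 (8.63 and 20.5), which encodes a repressor of Ciita, were higher in T1 than in C. In T3 over C, with 3.02% higher and 6.68% lower, 2 of these 14 passed. Ifngr2, a chain of the interferon gamma receptor, was higher (17.6 and 49.0) and Irf8 lower (23.3 and 9.54). Lgmn, an endosomal protease gene, was the 1 of 9 antigen processing genes that was higher in T1 than in C (5.92 and 16.9), and Cd86 the 1 of 4 genes of traffic and costimulation (5.67 and 11.8). None of 11 class I presentation genes passed in either comparison with C. Their median log2 ratio was −0.10 in T1 over C and −0.57 in T3 over C, against −0.07 and −0.11 over all tested genes. In T3 over T1 it was −0.41 against −0.04. In T3 against T1, with 2.07% higher and 4.36% lower, 1 of 14 genes of transcription (Irf8), 1 of 9 of processing (Lgmn) and 2 of 4 of traffic and costimulation were lower. The last are Cd83 (50.7 CPM in T1 and 19.5 in T3) and Cd86 (11.8 and 2.14). Ciita itself was 4.07, 4.01 and 1.71 CPM in C, T1 and T3 and had too few UMIs to be tested.

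Part of the CD3-positive barcodes of T3 lay in unnamed cluster 5, which is led by haemoglobin genes and was found only in that library. Its 295 CD3-positive barcodes without B transcripts had a median of 1038 UMIs, 74533 CPM of haemoglobin and 5150 CPM of class II. UMIs of H2-Oa and H2-Ob per 100 UMIs of Cd74 were 2.99 and 5.03 there. The B-like class of T3 had 1.56 and 3.44, and the CD3-positive barcodes of CD3-rich clusters 16.7 and 64.3. With each barcode weighted equally, CD3-positive barcodes without B transcripts of all clusters had a T3 over C ratio of the class II sum of 0.78, against −0.81 from summed UMIs and −1.19 in the CD3-rich clusters.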

How the data were processed

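What the authors deposited are whole-number UMI counts for each gene in each barcode, 1 matrix per library, without scaling. CASAVA 1.8, Cell Ranger 3.1.0, Seurat 3.1.4 and GRCm38 are names in the submitters' processing notes, which do not tell their roles. For the aligner's settings and the annotation, nothing is given in the sources used here. The deposited barcodes numbered 7903, 8566 and 5779 in C, T1 and T3, with 35489195, 37208603 and 15898397 UMIs and at least 500 each.

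Barcodes with under 200 genes or over 20% mitochondrial counts were left out. The 380, 421 and 210 highest Scrublet scores, 0.8% per 1000 deposited barcodes, were removed as doublets, since the caller's own threshold marked 107, 16 and 1. Clusters came from scanpy 1.11.5 and leidenalg 0.10.2 (2000 variable genes, 30 components, 15 neighbours, resolution 1) without integration, and without the members, H2-Eb2, receptor segments, mitochondrial and ribosomal protein genes. Names rest on marker lists, with score limits set after the clusters were seen. UMIs were summed per class and library, with exact Poisson intervals for levels, exact conditional intervals for ratios and Clopper-Pearson intervals for shares of barcodes. The size rule needed 20 barcodes in both libraries. It was tried on simulated B-like counts with counting error only. Such counts cannot show how the rule fares with differences between libraries, in cluster make-up or in free RNA. The members, gene lists, markers and rules were chosen with earlier results of these data known. All members were named, with list genes past the size rule and the genes most like the members. Ifi30 and H2-Ea-ps were not matched by symbol. Free RNA was not removed. One gene of the B transcript list, counted in the sum, is not reported here.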

Additional observations from a re-analysis of the deposited data

How the results depend on the processing

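Barcode numbers limit the myeloid, ILC2-like and plasma-cell-like values most. Of the alternative values of the log2 ratio of the class II sum, 35 lay within the counting interval of the reported one, 24 outside it with its sign, and 9 changed sign. No paired analysis was possible because each group is 1 library, and for the same reason no replicate was left out. The limits to CD3-rich clusters and the settings without clusters 3 or 4 or with cluster 5 were chosen after seeing the data. The cause of these changes was not tested.

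For T1 over C in B-like barcodes (−0.02) the sign changed without mitochondrial, ribosomal protein, immunoglobulin and haemoglobin counts in the total (0.043) and with a gate of at least 2 UMIs of B transcripts in any cluster (0.077). It was −0.028 without cluster 3. For T3 over C in B-like barcodes (−0.18) those 3 settings gave −0.23, −0.044 and −0.20, the mean over barcodes −0.11, and barcodes with at least 1000 UMIs −0.20.

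Without doublet removal the T1 over C ratio was 0.14 in germinal-centre-B-like (0.17 reported), 0.88 in ILC2-like (0.44) and −0.49 in CD3-positive barcodes without B transcripts (−0.68). The T3 over C ratio of phagocyte-like barcodes was then −0.78 (−1.16). The mean over barcodes gave 0.32 in plasma-cell-like barcodes (0.07), −0.49 and −1.09 in phagocyte-like ones of T1 and T3 (−0.64 and −1.16), and −0.28 and 0.78 in CD3-positive ones without B transcripts (−0.68 and −0.81). Phagocyte-like barcodes of T1 had −0.72 at no more than 10% mitochondrial counts, and those of T1 and T3 −0.59 and −1.23 without the abundant counts in the total.

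CD3-positive barcodes without B transcripts had, for T1 over C, 0.053 with at least 2 CD3 UMIs, 0.13 with no UMI of Igkc, Ighm or Ighd either (69 and 88 barcodes), 0.094 in CD3-rich clusters, with or without cluster 5 added, and 0.12 in those without cluster 4. For T3 over C these gave −0.50, −0.96, −1.19 in CD3-rich clusters (0.13 with cluster 5 added) and −1.15 without cluster 4. That ratio was −1.31 at no more than 10% mitochondrial counts, −0.64 without the abundant counts, a scaling that moved all genes by 0.17, and −1.08 with at least 1000 UMIs.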

Other observations

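Unnamed cluster 6, whose barcodes carry B markers and few UMIs (median 728 in C) and which is led by Gm26917, Lars2 and histone genes, differed from the B-like class in the make-up of its class II UMIs. Ciita was 407, 361 and 443 CPM there in C, T1 and T3, against 209.7, 152 and 209.6 in the B-like class, while Cd74 was 4596, 3108 and 3131 against 13641, 13225 and 11764. UMIs of Ciita per 100 UMIs of Cd74 were 8.86, 11.6 and 14.2, against 1.54, 1.15 and 1.78. H2-DMa, at 52.5, 109 and 75.2 CPM, was below its B-like level of 528, 471 and 354, and H2-Ob, at 400.5, 321 and 380.4, near its level of 383, 414 and 405. The cluster was higher in Ciita and lower in Cd74 and H2-DMa than the B-like class in each of the 3 libraries. The part of its low depth and of RNA quality in these values was not tested.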
